A study of Ovis aries with 4 samples.

Results

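The genes described here are zinc finger genes taken by name: every gene of either deposited peak list whose identifier begins with ZNF, ZBTB, ZSCAN, ZKSCAN or ZFP followed by a digit. The rule found 137 of the 5261 genes with an m6A peak, 102 of them in the aged list and 87 in the young list. Aged ovaries came from Cele black sheep of 5 to 6 years and young ovaries from Cele black sheep of 1 to 2 years. The series had 4 samples of ovarian tissue with no treatment in the labels, at each age an antibody-enriched m6A library and its input, and 1 list of m6A peaks per age was analysed here. A single list per age leaves every difference between ages without replicates, so shares are given with intervals that cover counting error only and no test was made. Whether a library pooled several animals is not given in the sources used here. Inputs were not used here, and the abundance of the transcript behind a peak is therefore unknown: fewer cells of a type and less RNA per cell cannot be told apart. Fold enrichments and p-values of single peaks are the authors' own, and they rank or describe peaks within a list.

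The RNA modification m6A, N6-methyladenosine, is written onto transcripts by a methyltransferase complex, read by proteins that steer splicing, decay and translation, and enriched around stop codons and in long internal exons. C2H2 zinc finger proteins bind DNA through tandem finger modules that each fold around a zinc ion, and they form the largest family of transcription factors in mammals. Many of them carry a KRAB domain, which recruits the corepressor TRIM28 and the histone methyltransferase SETDB1 to silence transposable elements and genes. Others carry a BTB domain, which binds corepressors such as NCOR1 and BCOR, or a SCAN domain, through which the proteins pair with each other. The genes lie in clusters that grew by tandem duplication, and their fingers are encoded mostly by one long last exon.

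The word repressor fits the names only in part. Of the 137 members, 27 carried the deposited term for DNA-binding transcription repressor activity, 14 the term for activator activity, 3 of these both, and 99 neither. The term metal ion binding was given to 129 members (94.2%) and regulation of transcription by RNA polymerase II to 112 (81.8%). The name rule also took genes that are no DNA-binding repressors. ZBTB8OS is deposited as protein archease, a cofactor of tRNA ligation, ZFP36L1 as an mRNA decay activator that binds AU-rich elements, and ZFP91 as an E3 ubiquitin ligase. ZNF207 encodes a spindle protein that binds BUB3. Markers did not settle the tissue: 7 of 15 ovary markers (46.7%) and 5 of 10 markers of other cells (50%) had a peak, against 24.5% of all protein-coding genes. Among ovary markers NOBOX was in the aged list only, FSHR and INHBB in both, and STAR, INHBA, FIGLA and CYP17A1 in the young list only. Among the others PECAM1 and KRT19 were in the aged list only, and PAX8, DES and CD68 in the young list only.

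More zinc finger genes were aged-only, with a peak in the aged list but not in the young one, than young-only, whereas the order over all genes was the reverse. Of the 137 genes, 50 were aged-only (36.5%, 95% Wilson interval 28.9 to 44.8), against a background of 26.9% of all genes with a peak. Another 35 were young-only (25.5%, 19 to 33.4; background 41.3%) and 52 had a peak in both lists (38.0%, 30.3 to 46.3; background 31.8%). The aged list was the shorter one, with 3656 peaks against 4378 young peaks, yet zinc finger genes had 132 aged and 110 young peaks. With only peaks of a fold enrichment of at least 2.00, the median over both lists, the members were 31 aged-only and 36 young-only. In that setting all genes were 26.1% aged-only and 54.7% young-only, so the members' shares of 33.7% and 39.1% still lay above and below them.

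**Figure D1:**
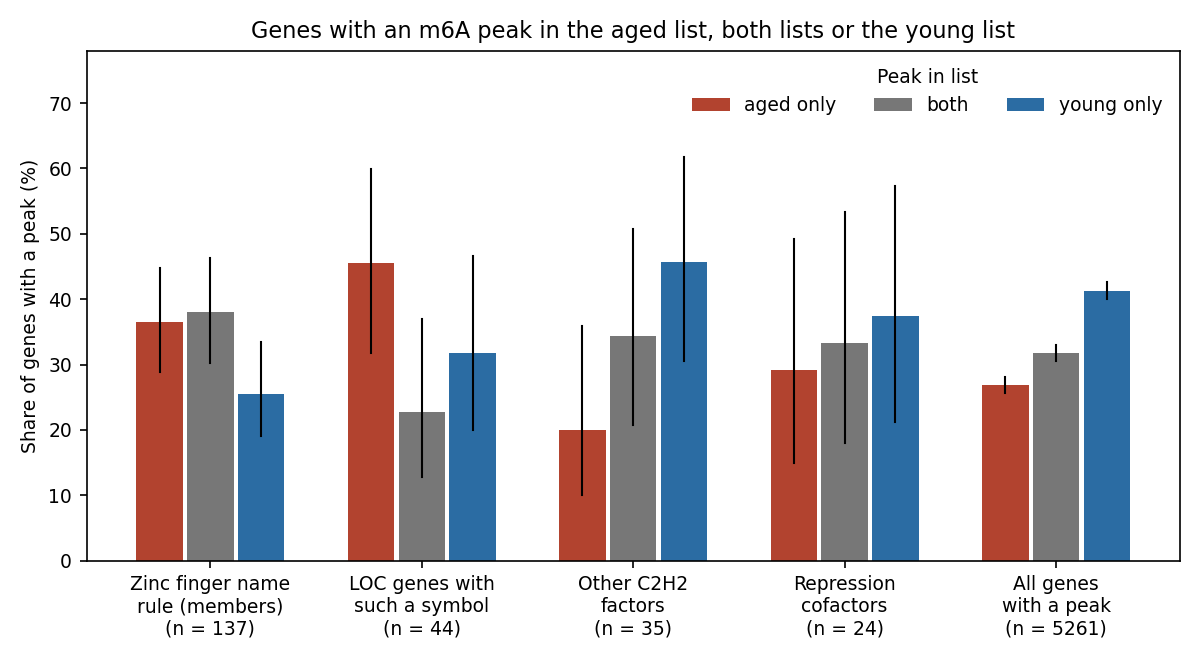
Bars give the share of genes, in percent, with a peak in the aged list only, in both lists and in the young list only, for 5 sets of genes, and lines give 95% Wilson intervals. The zinc finger genes stand at 36.5% aged-only and 25.5% young-only, all genes with a peak at 26.9% and 41.3%.

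Set against the annotation, zinc finger genes were found in the peak lists at a higher rate than protein-coding genes at large. Of 326 protein-coding genes whose symbol fits the name rule in a table of sheep genes, 133 had a peak at some age (40.8%, 35.6 to 46.2), against 24.5% of all 21300 protein-coding genes. In the aged list the rate was 29.4% (24.8 to 34.6) for zinc finger genes and 14.4% for all. In the young list the rates were 26.4% (21.9 to 31.4) and 17.9%. The rates are a description, with no test of their difference. Zinc finger genes under other names count only among the 21300. A rate above 24.5% was not particular to genes of the name rule. Of 54 listed cofactors of zinc finger repression 44.4% had a peak (32 to 57.6), and of 15 ovary markers 46.7% (24.8 to 69.9). Of 127 other C2H2 transcription factors 27.6% had one (20.5 to 35.9). The names of 9 of the 137 members are no symbol of that table.

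Of 17 genes named ZBTB, 16 encode BTB zinc finger proteins when ZBTB8OS is left out, 4 of them aged-only, 4 young-only and 8 in both lists. ZBTB7A, which encodes a repressor of fetal globin and of tumour suppressor genes in humans and mice, had the most peaks of any member in the aged list. Its 5 aged peaks had folds of 4.67, 2.54, 3.58, 3.25 and 1.58 from the 5′ to the 3′ end, and its 2 young peaks had folds of 1.54 and 1.88. The young peaks overlapped the aged peaks of 2.54 and 1.58, so the other 3 aged peaks had no counterpart in the young list. The peak of 2.54 (aged) and 1.54 (young) had the same boundaries in both lists, on chromosome 5 (17775347 to 17775696; positions are those of the deposited files, for which no source used here names a genome build). The 3 aged peaks nearest the 3′ end carried 1 common deposited p-value, with a log10 p of -11.7.

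Of the 3 BTB genes with the deposited term for methyl-CpG binding, ZBTB38 and ZBTB4 had peaks in both lists and ZBTB21 was aged-only. ZBTB38 had 2 aged peaks, with folds of 2.33 and 2.30, and 1 young peak of 2.09 that overlapped the second. ZBTB4 had 1 aged peak of 1.62 and 2 young peaks of 1.80 and 2.00. ZBTB16, whose product PLZF maintains spermatogonial stem cells in mice, had overlapping peaks with folds of 2.50 (aged) and 1.62 (young). ZBTB47 had overlapping 3′ UTR peaks of 1.80 (aged) and 4.25 (young), the highest young fold of the subfamily. ZBTB39 had stop codon peaks of 2.73 (aged) and 2.40 (young), and ZBTB2, which represses the cell cycle inhibitor gene CDKN1A in human cells, peaks of 2.36 (aged) and 1.81 (young). ZBTB40 had peaks of 1.81 (aged) and 1.62 (young). These folds come from lists made separately and are set side by side, not read as a change.

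The BTB genes of 1 list had mostly low folds. Aged-only were ZBTB48, which encodes a telomere-binding protein (1.88, adjusted p 0.0447), ZBTB45 (1.77), ZBTB21 (1.67) and ZBTB41 (1.62). Young-only were ZBTB5 (3.00) and ZBTB7C (2.25), both reported repressors of CDKN1A in human cells, ZBTB44 (1.79) and ZBTB26 (1.70). With 16 genes the intervals of these shares run from 10.2% to 49.5% for aged-only and for young-only genes, which covers the background of both.

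None of the genes named ZKSCAN or ZSCAN was young-only, and SCAN domain genes with other names were not sought out. ZKSCAN1 had an aged peak of 1.96 and a young peak of 1.78, and ZKSCAN5 an aged peak of 1.80 and a young peak of 1.59, and in neither gene did the peaks overlap. ZSCAN16 had 2 aged peaks, of 2.67 and 1.83, and a young peak of 1.64 that met the second by 1 base. ZSCAN26 (2.40, adjusted p 0.0102) and ZSCAN12 (2.00) were aged-only. All 3 ZSCAN genes lie together on chromosome 20 (29400025 to 29604589). The 5 genes are too few to set against the background.

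Of 6 genes named ZFP, 3 were aged-only, ZFP90 (3.33), ZFP28 (1.62) and ZFP91 (1.5), and 1 was young-only. The intervals, 18.8% to 81.2% for aged-only and 3.01% to 56.4% for young-only genes, hold the backgrounds of 26.9% and 41.3%. So few genes show no lean. ZFP62 had peaks of 2.12 (aged) and 2.22 (young) that did not overlap. ZFP69, which is linked to hepatic fat and diabetes in mice, had overlapping peaks of 1.82 (aged) and 1.69 (young). The young-only gene was ZFP36L1 (2.78), the only gene of the ZFP36 family of RNA-binding decay factors with a peak in either list.

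Over all deposited peaks, zinc finger genes carried more than 1 peak more often than genes at large at both ages. In the aged list 24 of 102 genes had more than 1 peak (23.5%, 16.4 to 32.6; background 15.1%), and in the young list 20 of 87 (23.0%, 15.4 to 32.9; background 12.1%). With folds of at least 2.00 the aged share was 10.7% (5 to 21.5), near the 8.6% of all genes, and the young share 16.4% (9.16 to 27.6), against 8.74%. ZNF462, a chromatin regulator of neural development, had 2 aged peaks, of 2.00 and 3.40, and 4 young peaks, of 3.00, 1.58, 1.76 and 2.00. The 2 young peaks nearest the 3′ end had no aged counterpart. ZNF260, a regulator of heart gene expression in rodents, had 1 aged peak of 1.75, which overlapped the middle of its 3 young peaks (1.91, 2.00 and 2.80). From the 5′ to the 3′ end, aged triplets were found in ZNF283 (2.18, 1.5 and 1.72), which had no young peak, in ZNF75D (1.61, 1.59 and 1.88, beside young peaks of 1.62 and 3.33), and in ZNF827, which encodes a protein that brings the NuRD complex to telomeres in human cells. ZNF827 had aged peaks of 2.43, 2.12 and 1.85, and its young peak of 1.90 overlapped the first, which was labelled 5′ UTR. ZNF397 had 2 peaks in each list, of 1.86 and 2.02 (aged) and of 1.75 and 2.00 (young), of which 1 pair overlapped. ZNF672 had an aged 5′ UTR peak of 3.50 with no young counterpart, and ZNF613 a second young peak of 3.62 with no aged one. In 10 of the 24 aged and 2 of the 20 young genes at least 2 peaks had the same deposited p-value (41.7% and 10%), near the 34% and 10.7% over all genes with more than 1 peak. The smallest gap between peaks of a gene ran from 98 bases (ZNF23 and ZSCAN16, aged) to 44610 (ZNF568, young), and was 198 in ZNF283. Both aged peaks of ZNF23 lay within 1 young peak. A count of peaks is therefore not a count of separate m6A sites.

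**Figure D2:**
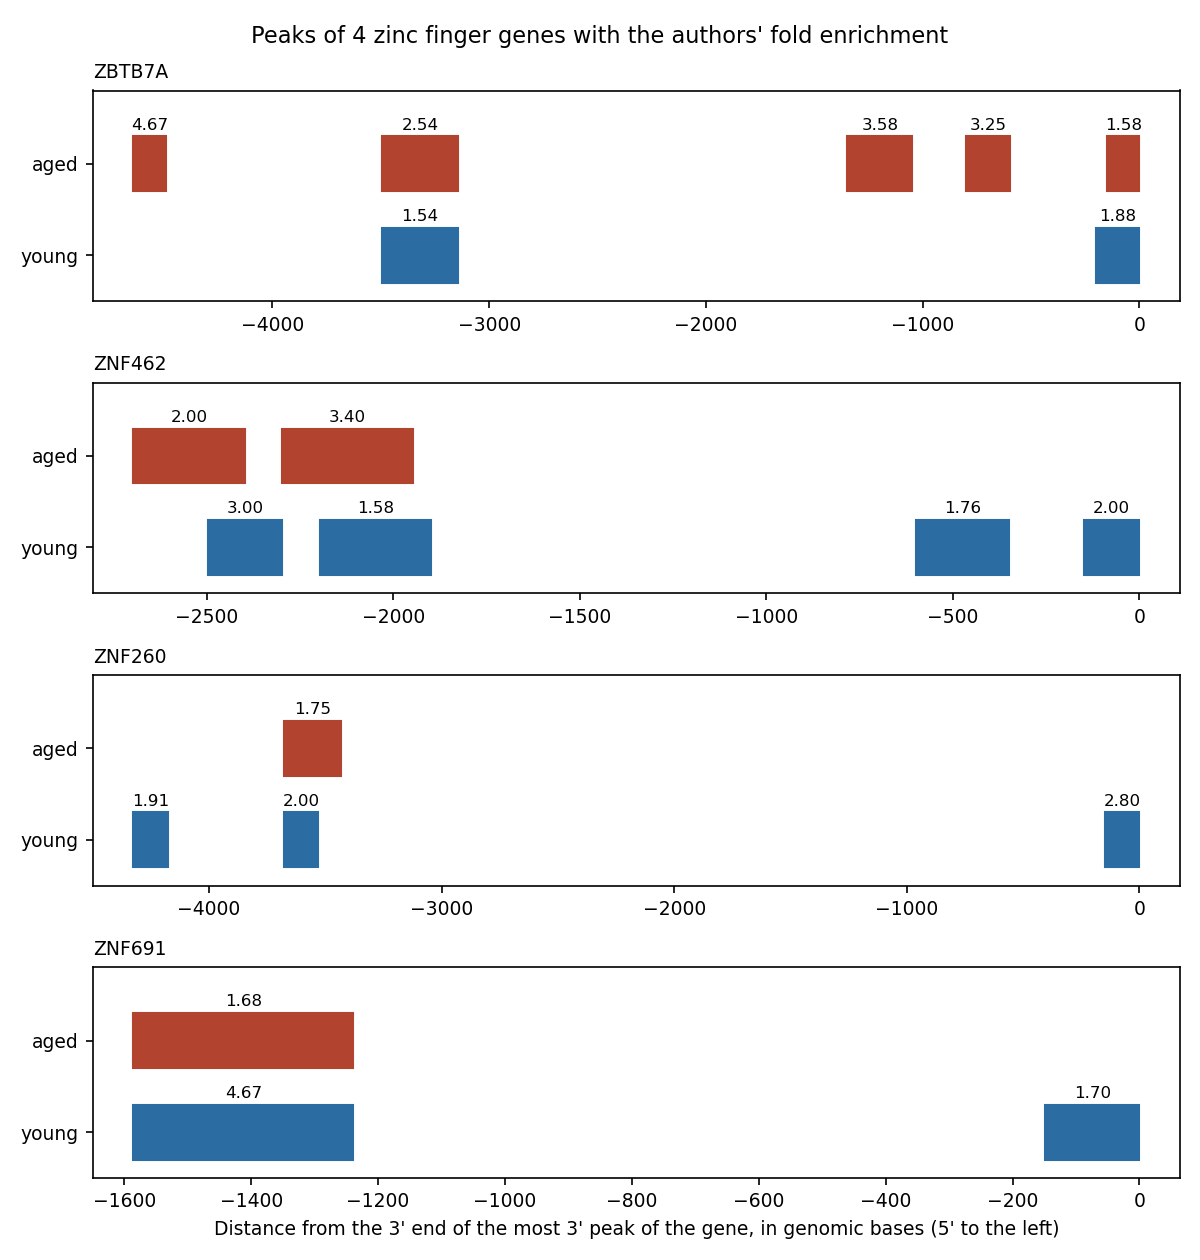
Peaks of ZBTB7A, ZNF462, ZNF260 and ZNF691 are drawn to scale as boxes, aged above young, against the distance in genomic bases from the 3′ end of the most 3′ peak, with the fold enrichment above each box. ZBTB7A has 5 aged and 2 young boxes, ZNF462 has 2 aged and 4 young ones, and ZNF260 and ZNF691 have their most 3′ box in the young row only.

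Of the 52 genes with a peak in both lists, 43 had peaks that overlapped and 9 did not (17.3%, 9.38 to 29.7), near the 15.7% of all genes in both lists. Over peaks, 49 of 132 aged peaks overlapped a young peak (37.1%, 29.4 to 45.6), against 41.0% of all aged peaks. From the other side, 48 of 110 young peaks overlapped an aged one (43.6%, 34.7 to 53.0), against 34.3% of all young peaks. With folds of at least 2.00 the young share was 25.4% (16.7 to 36.6), against 20.2% of all young peaks. The 9 genes with separate peaks were ZFP62, ZKSCAN1, ZKSCAN5, ZNF71, ZNF146, ZNF274, ZNF446, ZNF484 and ZNF775. ZNF274, which recruits SETDB1 to the 3′ ends of zinc finger genes in human cells, had a peak of 2.75 in the aged list and one of 2.60 in the young list. Both aged peaks of ZNF146 (1.83 and 1.91) had an adjusted p of 0.334, while its young peak had a fold of 2.50. They were among 6 of 132 aged member peaks with an adjusted p above 0.05 (background 3.28%), beside 1 peak each of ZNF181, ZNF25, ZNF395 and ZNF786. In the young list 0 of 110 member peaks were above it (background 0.228%), a count that allows a share of up to 2.73%.

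Ranked by the lower of the aged and young folds, the overlapping peaks were led by ZNF783 with 3.69 (aged) and 4.80 (young), on chromosome 4. ZNF462 came next with 3.40 and 3.00, but these peaks met by 1 base. ZNF8 followed with 3.54 (aged) and 2.71 (young), both labelled stop codon on chromosome 14 (66273242 to 66273442 shared). ZNF613 had 2.67 (aged) and 2.91 (young), ZNF660 2.34 and 2.33, ZNF792 2.26 and 2.33, and ZNF41 2.25 and 2.70. Identical boundaries were found in 7 pairs, those of ZBTB7A, ZNF131, ZNF197, ZNF268, ZNF660, ZNF691 and ZNF829.

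Some pairs had unlike folds in the lists, and those named next were chosen after their values were seen. ZNF142, altered in a human neurodevelopmental disorder, had the highest aged fold of any member, 6.37, over a young peak of 2.22. ZNF24, a repressor of VEGFA in human cells, had 3.56 (aged) and 1.56 (young), and ZNF829 had 3.40 (aged) and 1.52 (young). On the other side, ZNF691 had 1.68 (aged) and 4.67 (young) within identical boundaries, and ZNF7 had 1.76 (aged) and 3.50 (young), over 51 shared bases. ZNF568, which in mice silences a placental transcript of Igf2, had 2 overlapping pairs, with folds of 2.00 (aged) and 4.00 (young) and of 1.75 (aged) and 2.75 (young). Both peaks of the latter pair cross introns, which the overlap includes, so shared exon bases are not shown. Of the 50 pairs, 24 had the higher fold in the aged list and 26 in the young list. The fold was at least 1.5 times higher in 7 aged and 9 young cases of the 50, against 112 and 207 of all 1530 overlapping pairs. The lists were made separately and without replicates, so folds and counts of pairs are set side by side and not read as a change. Over the 50 pairs the median fold was 2.13 in the aged and 2.21 in the young list, against 2.00 and 2.09 over all 1530. The aged p-value was the smaller one in 2 of the 50 pairs, and in 95 of all 1530.

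**Figure D3:**
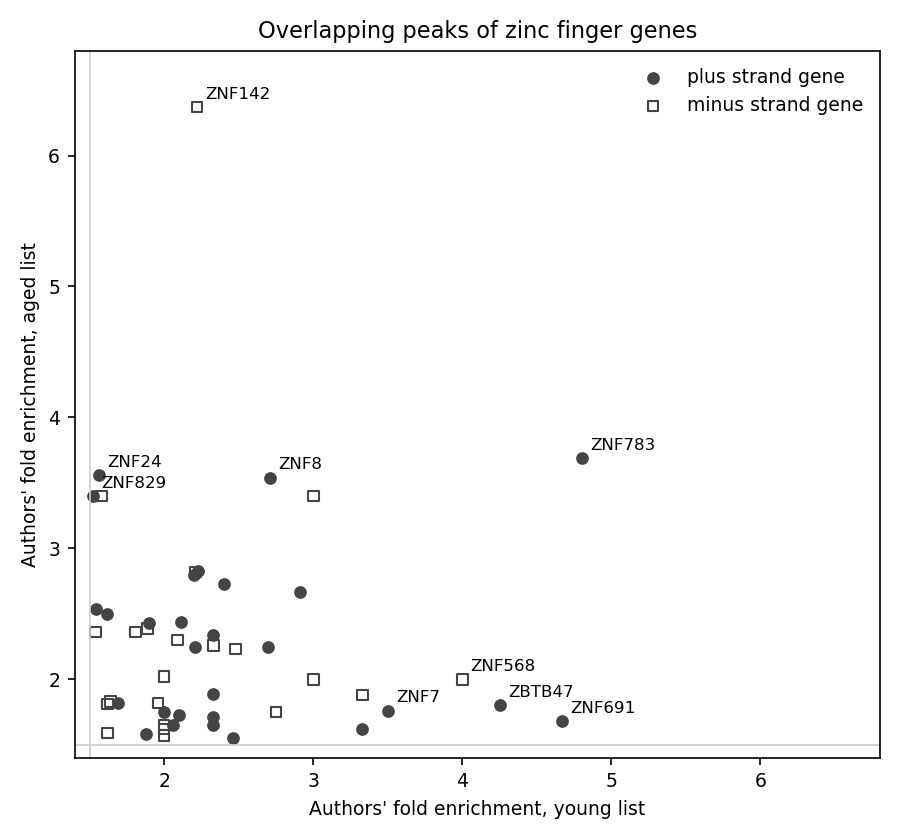
Each point is 1 of 50 overlapping pairs of peaks in zinc finger genes, with the authors' fold enrichment in the aged list on the vertical axis and in the young list on the horizontal axis, filled circles for plus-strand and open squares for minus-strand genes, and grey lines at the lowest deposited fold of 1.5. ZNF142 stands at 6.37 on the aged axis, and ZNF783 is the pair with high folds on both axes.

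The 50 aged-only genes had folds from 1.5 to 4.00. ZNF471 led with 4.00, in a 3′ UTR peak on chromosome 14 (64440952 to 64441251). ZFP90 (3.33), ZNF782 (3.25), ZNF239 (2.71) and ZNF202 (2.67), a repressor of lipid metabolism genes in human cells, came next, followed by ZNF655 (2.44), ZSCAN26 (2.40) and ZNF527 (2.38). ZNF655, ZNF527, ZNF283, ZNF354A, ZNF787 and ZNF821 had more than 1 aged peak and no young one. Known activators were among them: ZNF410 (2.00), which drives expression of the NuRD gene CHD4 in human cells, and ZNF76 (1.84), a relative of ZNF143. ZNF638 (1.67), which acts with the HUSH complex on unintegrated viral DNA, and ZNF318 (1.90), a cofactor of the androgen receptor, were also aged-only; these last 4 were chosen for their known roles after their values were seen. The median fold of the 57 peaks of aged-only members was 1.84, against 1.83 for all aged-only genes.

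The 35 young-only genes had folds from 1.62 to 3.44. The spindle protein gene ZNF207 led with 3.44, labelled stop codon on chromosome 11 (17544252 to 17544399). ZNF536 (3.35), which holds back neuronal differentiation, ZNF292 (3.20), ZBTB5 (3.00), ZNF286A (3.00), ZNF461 (2.89), ZFP36L1 (2.78) and ZNF248 (2.75) completed the leading 8. More than 1 young peak and no aged one was found in ZNF281, ZNF292, ZNF428, ZNF644 and ZNF789. ZNF281 (1.70 and 2.15) encodes a regulator of pluripotency and epithelial to mesenchymal transition, and ZNF644 (2.11 and 1.67) a partner of the histone methyltransferases EHMT1 and EHMT2. The median fold of the 40 peaks of young-only members was 2.11, against 2.03 for all young-only genes.

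Peaks of zinc finger genes were labelled much like all peaks of their list, and each of the 3′ UTR, exon and stop codon intervals held its background. Among aged peaks 66.7% were labelled 3′ UTR (58.3 to 74.1; background 66.4%), 18.2% exon (12.5 to 25.6; background 15.3%), 12.1% stop codon (7.60 to 18.8; background 15.3%) and 3.03% 5′ UTR (background 2.49%). Among young peaks 49.1% were labelled 3′ UTR (39.9 to 58.3; background 47.3%), 43.6% stop codon (34.7 to 53.0; background 41.3%), 5.45% exon (2.52 to 11.4; background 9.3%) and 1.82% 5′ UTR (background 1.55%). The share that crossed an intron lay below its background, 9.09% of aged peaks (5.28 to 15.2; background 22.5%) and 4.55% of young ones (1.96 to 10.2; background 16.9%). The 24 aged exon peaks included ZNF782 (3.25), ZNF181 (2.83 and 2.57), ZNF274 (2.75) and ZSCAN16 (2.67 and 1.83). The 6 young exon peaks lay in ZNF568 (2.75), ZNF41 (2.60), ZNF454 (2.36), ZNF71 (2.25), ZNF181 (2.23) and ZNF846 (2.06).

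The stop codon label of aged peaks depended on the strand of the gene, as it did over the whole list. It was given to 15 of 70 plus-strand member peaks (21.4%) and 1 of 62 minus-strand member peaks (1.61%) in the aged list, against 45.6% and 41.5% in the young list. Over all peaks the aged shares were 27.5% on the plus and 2.58% on the minus strand. Minus-strand pairs with a young stop codon label carried 3′ UTR in the aged list in 9 cases and exon in 1. ZNF454, ZNF79, ZBTB2 and ZNF786 were among those labelled 3′ UTR. On the plus strand the aged label was stop codon in 8 such pairs and 3′ UTR in 3, and ZNF8, ZNF268 and ZNF205 had the stop codon label in both lists. Where 1 gene had peaks of both labels in a list, the one labelled stop codon was nearer the 3′ end in 6 of 6 aged pairs of peaks from 3 genes, 4 of them of ZBTB7A, and in 8 of 8 young pairs from 7 genes, although a stop codon lies 5′ of its 3′ UTR. The label is therefore not read as the place of a stop codon, nor compared between ages.

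**Figure D4:**
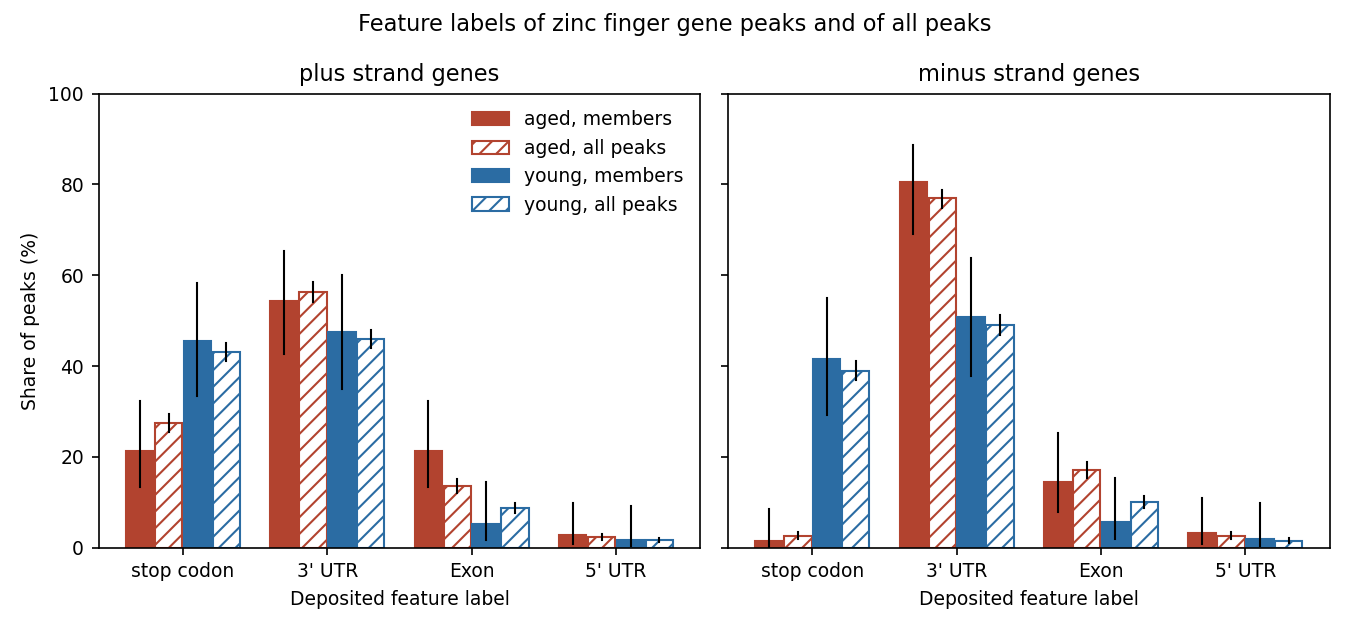
Bars give the share of peaks, in percent, with each deposited label on plus-strand genes (left) and minus-strand genes (right), filled for zinc finger genes and hatched for all peaks, red for aged and blue for young, with 95% Wilson intervals. The aged stop codon bars stand at 21.4% on the plus and 1.61% on the minus strand.

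The members lay in clusters. Chromosome 14 held 32 of the 137 genes (23.4%, 17.1 to 31.1), against 5.38% of all genes with a peak, and 22.1% of the 326 annotated zinc finger genes lie there. Of these 32, 13 were aged-only (40.6%, 25.5 to 57.7), 12 in both lists and 7 young-only (21.9%, 11 to 38.8). The 251 other genes of the chromosome were 33.1% aged-only and 40.6% young-only. The members' aged-only interval holds the 33.1%, which itself lies above the 26.9% of all genes, and their young-only interval lies below the 40.6%. Without chromosome 14 the members were 35.2% aged-only and 26.7% young-only. Chromosome 24 followed with 14 genes (10.2%, 6.19 to 16.4), and 7.98% of the annotated zinc finger genes lie there. They were 3 aged-only (21.4%), 5 in both lists and 6 young-only (42.9%). The 173 other genes of that chromosome were 22% aged-only and 51.4% young-only, so the class shares of the members lay near theirs.

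When members within 1 Mb of the next were joined, 71 of the 137 genes fell into 22 groups and 5 groups had at least 5 genes. On chromosome 14 (46181797 to 46818110) the 7 genes ZNF146, ZNF461, ZNF260, ZNF568, ZNF829, ZNF527 and ZNF570 were 2 aged-only, 4 in both lists and 1 young-only. At the end of the same chromosome (66173224 to 66393467) ZNF329, ZNF274, ZNF8, ZNF132, ZNF324, ZNF446 and ZBTB45 were 3 aged-only, 3 in both lists and 1 young-only. On chromosome 4 (113377688 to 113970386) ZNF786, ZNF783, ZNF467 and ZNF775 were in both lists, ZNF398 was young-only and none was aged-only. Each of the 5 groups held genes of more than 1 class. With 3 classes, none of which held most members, that is likely for any group of at least 5 genes. Smaller groups could hold 1 class only: ZNF32 and ZNF239 were both aged-only, and ZNF24 and ZNF397 were each in both lists.

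**Figure D5:**
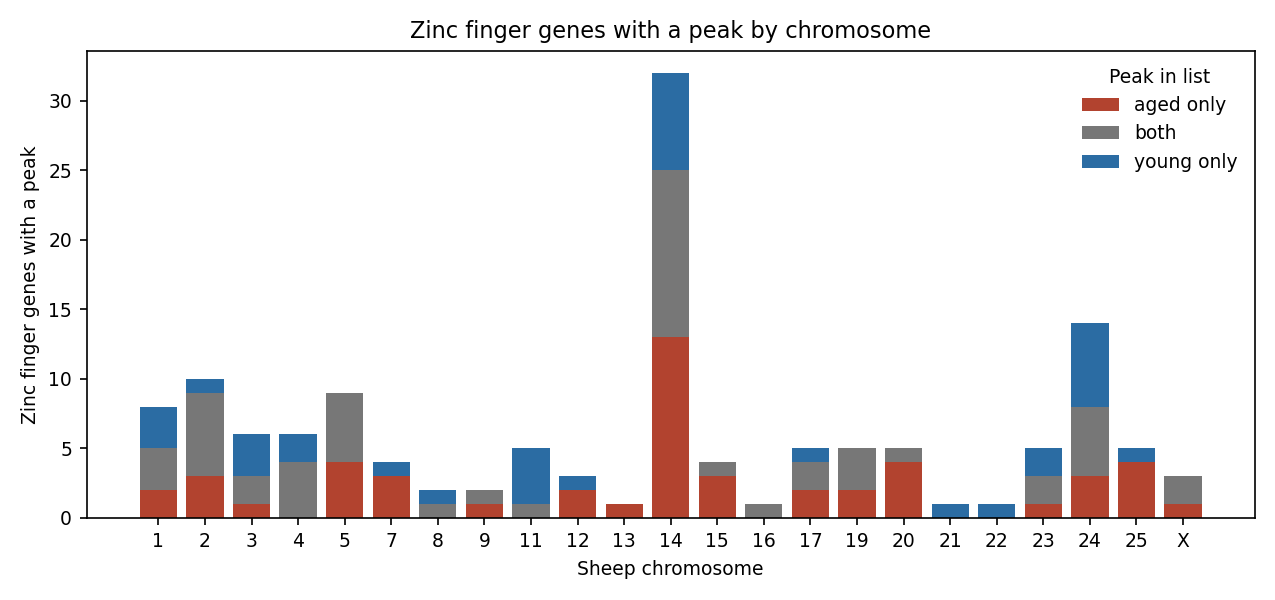
Bars count zinc finger genes with a peak on each sheep chromosome that holds any, split into aged-only, both lists and young-only. Chromosome 14 has 32 genes and chromosome 24 has 14.

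Few members with one deposited pathway label were young-only. The KEGG map for Herpes simplex virus 1 infection, which lists many KRAB zinc finger genes, was assigned to 42 members, of which 18 were aged-only (42.9%, 29.1 to 57.8), 19 in both lists and 5 young-only (11.9%, 5.19 to 25). Over all genes with a peak 26.9% were aged-only and 41.3% young-only. The label was on 138 of all 5261 genes with a peak, whose classes as a set were not counted. No test of the difference was made, and the other 95 members were 32 aged-only (33.7%, 25 to 43.7), 33 in both lists and 30 young-only (31.6%, 23.1 to 41.5). Of the 27 members with the repressor activity term, 11 were aged-only (40.7%, 24.5 to 59.3), 9 in both lists and 7 young-only (25.9%, 13.2 to 44.7). Both intervals hold the background. Of the 14 with the activator term, 4 were aged-only (28.6%, 11.7 to 54.6), 9 in both lists (64.3%, 38.8 to 83.7) and 1 young-only (7.14%, 1.27 to 31.5). The aged-only interval holds its background. The interval for both lists lies above the background of 31.8% and the young-only interval below that of 41.3%, from few genes and with no test.

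Zinc finger genes outside the name rule were counted in the same way. Genes with a LOC identifier and a zinc finger symbol of the same pattern numbered 44. Of these, 20 were aged-only (45.5%, 31.7 to 59.9; background 26.9%) and 14 young-only (31.8%, 20 to 46.6; background 41.3%). The other 10 were in both lists (22.7%, 12.8 to 37; background 31.8%). Only the aged-only interval did not hold its background, and the share in both lists lay below its background, unlike that of the members. Several of the LOC genes share the symbol ZNF836, so reads may be split between near copies and these genes are uncertain. The same holds for 7 members whose deposited symbol differs from the gene name or is missing, such as ZNF41 with the symbol ZNF81 and ZNF75A with ZNF75D. C2H2 transcription factors with other names, from a list of 127, had a peak in 35 cases, 7 aged-only (20.0%, 10 to 35.9), 16 young-only (45.7%, 30.5 to 61.8) and 12 in both lists. Their intervals hold the backgrounds of 26.9% and 41.3%, and the 27.6% of the list with a peak (20.5 to 35.9) lies near the 24.5% of all protein-coding genes. The Hedgehog effector gene GLI1 (3.29), KLF16 (3.20) and the GATA4 cofactor gene ZFPM2 (3.19) led the young-only and ZFHX4 (3.67) and SP1 (3.00) the aged-only genes.

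Among 54 listed cofactors of zinc finger repression, 24 had a peak (44.4%, 32 to 57.6), 7 aged-only (29.2%, 14.9 to 49.2), 9 young-only (37.5%, 21.2 to 57.3) and 8 in both lists. Of all protein-coding genes 24.5% had a peak, and the class shares of the cofactors lie near the backgrounds of 26.9% and 41.3%. TRIM28 and SETDB1, the core of KRAB silencing, had no peak in either list. The heterochromatin protein gene CBX1 (2.33), the NuRD subunit gene GATAD2B (2.40), the corepressor genes CTBP2 (2.20) and SIN3A (2.17), the deacetylase gene HDAC4 (2.00) and GATAD2A (1.81) were aged-only. CHD3 (4.29), MBD3 (2.92) and MBD2 (2.25), which encode NuRD proteins, HDAC7 (2.01), EHMT2 (2.00) and ATF7IP2 (1.75) were young-only. NCOR1, the corepressor of BTB factors, had peaks of 2.38 and 1.90 (aged) and of 3.08 and 1.61 (young), and BCORL1 had 3.35 (aged) and 2.00 (young). CBX5 (1.79 in the aged list, 3.00 and 2.15 in the young) and the HUSH subunit gene TASOR (2.14 aged, 2.44 young) were in both lists.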

How the data were processed

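Total RNA of ovarian tissue was made into stranded libraries and sequenced on a NovaSeq instrument, per the labels' protocols. The submitters' processing notes name ChIPseeker and DESeq2 with no stated role. Which aligner, peak caller, genome build and depth lie behind the peaks is not given in the sources used here. Per the file headers, each peak has the authors' p-value, adjusted p-value and fold enrichment (a ratio on a linear scale). Deposited log10 columns of these p-values hold a score per peak. Deposited widths leave out introns. The lowest deposited fold was 1.5 and the highest p-value 0.049, and weaker peaks were not analysed here.

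Members were taken by gene name, and start positions are printed counting from 1. Peaks overlapped when they shared at least 1 base on the same strand, introns included. Chromosome numbers, symbols and the count of annotated genes came from a RefSeq gene table of assembly ARS-UI_Ramb_v3.0, matched by identifier for 99.5% of peaks and 136 of 137 members. Its coordinates were not used, and no sequence was used here. Shares have Wilson 95% intervals, and a count of 0 the share of 3 counts. The rule for named genes covered those with at least 2 peaks in a list, the 8 highest folds of each class, the 4 highest of each subfamily and up to 6 cofactors per class. Members and lists were chosen with earlier results of these data known. Overlap code was tested on simulated data. Alternatives were folds of at least the median, adjusted p-values up to 0.01, lists of equal length, peaks within 1 exon, LOC genes added, the ZFP36 family left out, an overlap of 50% and each strand. Further ones, leaving out ZBTB8OS and ZFP36L1 and leaving out chromosome 14, were chosen after seeing the data. Tools were Python 3.11.15 with scipy 1.17.1, numpy 2.4.6 and pandas 2.3.3, and matplotlib 3.10.9 for figures.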

Additional observations from a re-analysis of the deposited data

How the results depend on the processing

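Over 15 shares and medians of the zinc finger genes and 11 alternative settings, 100 of 110 values stayed within the interval of the value as deposited and 10 did not. Some of the 100 could hardly move. Equal list lengths left the aged member peaks whole, and an adjusted p of at most 0.01 removed no young member peak. Leaving out the ZFP36 family removed 1 gene and no aged peak. The count of 100 is therefore no measure of stability. With folds of at least 2.00, the young-only share of genes was 39.1% and the share in both lists 27.2%, the median folds were 2.37 (aged) and 2.36 (young) in place of 1.93 and 2.13, the share of aged genes with more than 1 peak was 10.7%, and 25.4% of young peaks overlapped an aged one. That setting keeps only the higher folds by construction, which raises both medians. By strand, stop codon labels were 21.4% (plus) and 1.61% (minus) of aged peaks, and 3′ UTR labels 54.3% and 80.6%; the cause was not tested. The aged-only share lay above the young-only share as deposited, with an adjusted p of at most 0.01, with equal list lengths, with peaks within 1 exon and without chromosome 14, and below it with folds of at least 2.00. Depth is unknown and each age has 1 list, so a gene absent from a list is not shown to lack the mark. No paired analysis was possible because each age has 1 peak list and no test was made.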
